A study of Mus musculus with 2 samples.

Results

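Integrins are paired cell-surface receptors, each made of an alpha and a beta subunit, that hold cells to the extracellular matrix. At focal adhesions the tails of the beta subunits bind talin and kindlin, and a plaque of adaptor proteins, kinases and actin linkers joins the receptors to the actin cytoskeleton. In bone marrow stromal cells these contacts carry adhesion to collagen, fibronectin and laminin, and they sense how stiff the matrix is. The set described here holds 38 mouse genes, 21 of them integrin subunit genes and 17 of them genes of the plaque, chosen by name. All 38 were found among 18924 genes that could be named in the deposited files, and 23 of them reached 1 FPKM in at least 1 library. FPKM is the number of sequenced fragments assigned to a transcript per unit of length and of library size, so levels of different genes can be compared within a library.

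RNA was sequenced from mesenchymal stem/progenitor cells that had been taken from CD-1 mouse marrow at 3 months of age and cultured in DMEM plus serum. There were 2 libraries, 1 from PPARg-deficient cells (genotype label PPAR KO) and 1 from cells with a floxed PPARg allele (genotype label PPAR-flox, the control). How the allele was deleted, how many mice gave cells and for how long they were cultured is not stated in the labels. With 1 library per group no difference below has a replicate check, and no test or error could be computed. The series compared gene expression with and without PPARg, a nuclear receptor that drives fat cell formation.

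Pparg itself was at 1.39 FPKM in the deficient library and 6.86 FPKM in the floxed library. Read coverage over all transcripts summed to 1728 megabases in the deficient library and 1383 megabases in the floxed library. Fragment numbers per gene are unknown, and the bounds deposited with each FPKM cover its estimation in that library, not the spread between cultures. Of 14 stromal marker genes 11 reached 1 FPKM in the deficient library, against 10 in the floxed library. Among them Ly6a was at 841 and 530 FPKM, Cxcl12 at 318 and 60.4 FPKM and Col1a2 at 255 and 205 FPKM, in the deficient and the floxed library. Eng and Thy1, which are often used to define these cells, stayed under 1 FPKM, Eng at 0 and 0.034 FPKM and Thy1 at 0.419 and 0 FPKM in the same order.

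Over 10634 kept genes and unnamed loci, the median log2 ratio of deficient to floxed FPKM was 0.86 (1.81-fold), after 1 was added to each FPKM. Folds are therefore given on that log2(FPKM + 1) scale, minus that median. These relative folds are called higher or lower at 2-fold, by size alone. The added 1 makes changes of low genes look smaller, so it can place a low gene with a rise in FPKM below the median gene. Itga6, at 1.05 and 0.415 FPKM in the deficient and the floxed library, was at -0.32 with 1 added and 0.02 with 0.1 added. Against the median gene, 2 of the 23 members were at least 2-fold higher (8.70%) and 2 were at least 2-fold lower (8.70%). Among all kept genes the shares were 10.2% higher and 11.7% lower, so those of the members lay near the background. That reading depends on the setting, since with 5 FPKM added in place of 1 the share of higher members was 26.1%, against 8.48% of all kept genes, and the 6 higher members then outnumbered 0 lower ones. As deposited, without that centring, 14 of 23 members were at least 2-fold higher (60.9%) and 0 were lower, beside 42.1% and 4.55% of all kept genes. The median relative log2 fold of the 23 members was 0.32, with a range of -1.16 to 1.28. In bulk RNA fewer cells of a kind and less RNA per cell cannot be told apart.

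The 4 called members were Parva and Vcl, which were higher, and Actn1 and Itga11, which were lower. Vcl was under 2-fold with upper-quartile scaling (0.87), a limit of 5 FPKM (0.83) and 0.1 FPKM added (0.86), and past it in the other settings tried. Actn1 and Itga11 were within 2-fold with 5 FPKM added (-0.71 and -0.55). Without an added FPKM the ratio of deficient to floxed was 4.29 for Itgb5 and 4.02 for Vcl, yet only Vcl was called. Most kept plaque genes lay above the median gene, and the integrins were spread on both sides of it. Of the 14 kept plaque genes 11 were above it, with a median of 0.52. Of the 9 kept integrins 3 were above it, with a median of -0.32. The integrin median was 0.04 under upper-quartile scaling and 0.05 relative to the median of all genes without a filter, so its side of the median gene was not stable, while the plaque median was 0.48 and 0.90 in those settings. With 0.1 FPKM added in place of 1 the integrin median was -0.10 and the plaque median was 0.50. By construction 50% of all kept genes lie above the median gene. The 14 plaque genes all reached 1 FPKM in both libraries, whereas 4 of the 9 integrins, Itga1, Itga3, Itga6 and Itgb2, reached it in the deficient library alone. Those 4 had to be higher as deposited to be kept, so the integrin count is not a count over all 21 integrin genes. The difference between integrins and plaque genes was not tested.

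**Figure D1:**
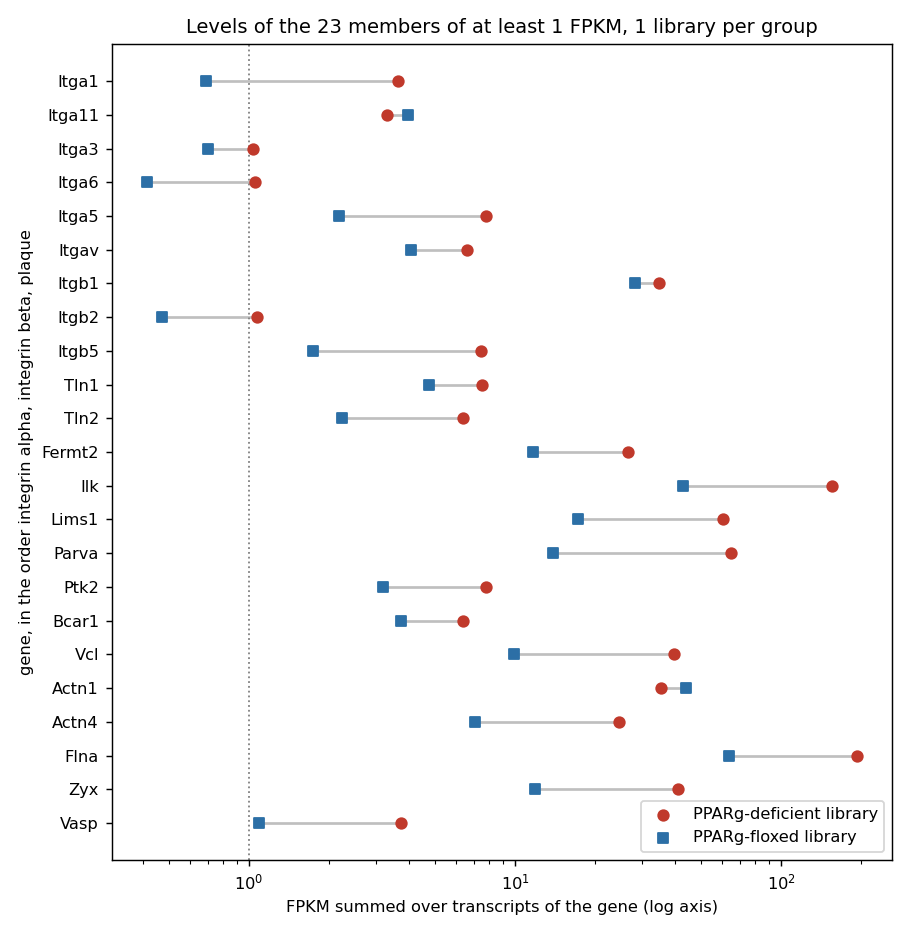
FPKM of the 23 members that reached 1 FPKM in a library, on a log axis, with 1 row per gene. Circles are the PPARg-deficient library, squares the PPARg-floxed library, and the dotted line marks 1 FPKM. Of the 23 genes, 21 have the circle to the right, and Itga11 and Actn1 have it to the left.

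Among the alpha subunits, Itga5, Itgav, Itga11 and Itga1 carried most of the signal. Itga5, whose product pairs with that of Itgb1 as the main fibronectin receptor, was at 7.77 FPKM in the deficient library and 2.18 FPKM in the floxed library, a relative log2 fold of 0.61. Itgav, the partner of several beta subunits in receptors for vitronectin and other RGD proteins, was at 6.58 FPKM in the deficient library and 4.06 FPKM in the floxed library (-0.28). By summed FPKM Itga5 was thus the highest alpha gene in the deficient library. In the floxed library Itgav and Itga11, at 4.06 and 3.96 FPKM, were nearly level. Itga11 had 1 transcript, whereas the largest single transcript of Itgav was at 1.68 FPKM there. Itga2b, the platelet alpha subunit, was at 0.132 FPKM in the deficient library and listed at 0 in the floxed library. Itga8 stayed at or below 0.0989 FPKM in both.

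The collagen-binding subunits differed from each other. Itga11, the subunit of a receptor for fibrillar collagen made by fibroblasts and stromal cells, was at 3.29 FPKM in the deficient library (deposited bounds 2.75 to 3.84) and 3.96 FPKM in the floxed library (3.36 to 4.57). The gene lies on chromosome 9 from 62525662 to 62631786 (mm9) and was covered by 1 transcript of 30 exons. It had the lowest relative fold of the kept integrins, -1.07, but its FPKM bounds overlapped, so as deposited its level differed little. Itga1 was at 3.62 FPKM in the deficient library and 0.690 FPKM in the floxed library (0.59). Much of that sum came from a transcript of 2 exons that matched no gene and overlaps a transcript matched to the neighbouring gene Pelo, which was left out of the sum. The transcript with all 29 exons of Itga1 was at 1.27 FPKM (0.962 to 1.58) in the deficient library. In the floxed library it was at 0.223 FPKM (0.0851 to 0.361), so the bounds were apart. With transcripts of matched structure only the relative fold of Itga1 was 0.03. The added 1 makes a change at such low levels look small. With 0.1 added instead, the relative fold of the full Itga1 sum was 1.10. Itga10 was at 0.0221 and 0.160 FPKM in the deficient and the floxed library, and Itga2 was listed at 0 in both.

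The laminin receptors were low. Itga6 was at 1.05 FPKM in the deficient library and 0.415 FPKM in the floxed library (-0.32), and Itga7 stayed at or below 0.084 FPKM. Itga3 was at 1.04 FPKM in the deficient library and 0.703 FPKM in the floxed library (-0.60), and its transcripts differed. The transcript with 26 exons was at 0.795 FPKM (bounds 0.497 to 1.09) in the deficient library, against an upper bound of 0.0475 FPKM in the floxed library. The transcript with 25 exons was at 0.244 FPKM (0.0242 to 0.464) in the deficient library and 0.703 FPKM (0.442 to 0.964) in the floxed library. The transcripts differ by a single exon of 99 nt, exon 23 counted from the start of the gene, on chromosome 11 from 94912766 to 94912864 (mm9). It is wholly coding in the matched GENCODE transcript and a multiple of 3 in length. The sequence of that exon, read from the GENCODE transcript and given in the sense of the gene, is shown because it is the only stretch by which the Itga3 transcripts of the libraries differ.
Itga3 exon 23: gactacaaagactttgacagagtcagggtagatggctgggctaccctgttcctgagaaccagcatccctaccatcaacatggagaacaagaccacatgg
The highest mean read coverage of an Itga3 transcript was 1.27 in the deficient library, against 1.10 in the floxed library, so a base of it was read about once.

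Itgb1, the common partner of most alpha subunits, was by far the most abundant integrin in both libraries. It was at 34.7 FPKM in the deficient library and 28.2 FPKM in the floxed library, a relative log2 fold of -0.57, and the bounds of its major transcript overlapped (26.0 to 41.9 and 26.3 to 30.0 FPKM). Itgb5, a partner of Itgav in a vitronectin receptor, was at 7.44 FPKM in the deficient library and 1.74 FPKM in the floxed library (0.77), the highest relative fold of any kept integrin. Itgb3, the other vitronectin-receptor partner, was at 0.421 FPKM in the deficient library and 0.554 FPKM in the floxed library, with bounds that overlapped. Itgb2, the beta subunit of leukocyte integrins, was at 1.08 FPKM in the deficient library and 0.471 FPKM in the floxed library (-0.36). Its leukocyte alpha partners Itgam, Itgax and Itgad were listed at 0 in both libraries, and Itgal was at 0.021 and 0.154 FPKM in the deficient and the floxed library. Itgb4, Itgb6, Itgb7 and Itgb8 stayed under 1 FPKM in both.

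Shares within a library do not depend on how the libraries are scaled to each other. Of the summed FPKM of the 13 alpha genes, Itga5 made up 32.5% in the deficient library, against 17.6% in the floxed library. Itga11 made up 13.8% in the deficient library, against 32.0% in the floxed library, and Itgav 27.5% and 32.8%. So the fibronectin receptor subunit gene Itga5 held more of the alpha FPKM in the deficient library, and Itga11 held more in the floxed library. Itga1, also a collagen-binding subunit, went the other way from Itga11. It made up 15.1% in the deficient library, against 5.57% in the floxed library, including its transcript that matched no gene. The 4 collagen-binding genes together summed to 6.94 of 23.9 alpha FPKM in the deficient library, against 4.81 of 12.4 in the floxed library. Of the 8 beta genes Itgb1 held 78.2% in the deficient library, against 90.5% in the floxed library, and Itgb5 held 16.7% and 5.57%. The ratio of Itgb1 to the alpha sum was 1.45 in the deficient library, against 2.27 in the floxed library. These shares describe transcripts of 2 libraries, and no interval could be given for them.

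**Figure D2:**
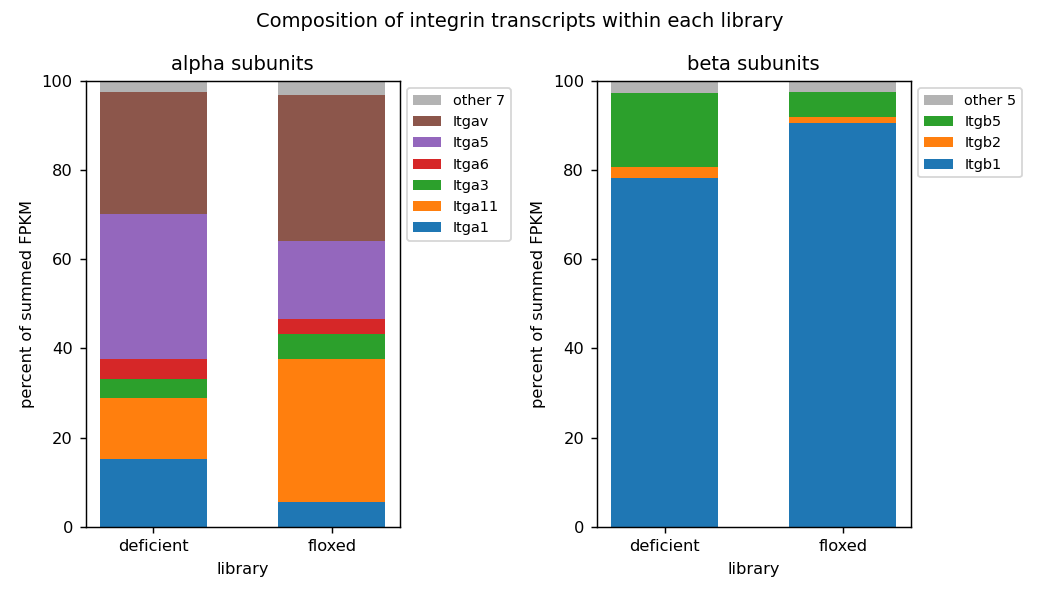
Percent of summed FPKM held by each integrin subunit gene within a library, alpha genes in the left panel and beta genes in the right panel, with the PPARg-deficient library to the left of the PPARg-floxed library. Genes under 2% in both libraries are pooled in grey. Itga5 holds 32.5% of alpha FPKM in the deficient library, against 17.6% in the floxed library, and Itgb5 holds 16.7% and 5.57% of beta FPKM.

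Talin and kindlin bind the beta tails and switch integrins to the active state. Fermt2, which encodes the kindlin of mesenchymal cells, was at 26.7 FPKM in the deficient library (24.7 to 28.6) and 11.7 FPKM in the floxed library (10.4 to 13.03), a relative log2 fold of 0.26. Tln1, the widely expressed talin, was at 7.54 FPKM in the deficient library (6.92 to 8.16) and 4.74 FPKM in the floxed library (4.24 to 5.24), a relative log2 fold of -0.29. Both were thus higher as deposited with bounds apart, and both lay within 2-fold of the median gene. Tln2 was at 6.36 FPKM in the deficient library and 2.24 FPKM in the floxed library (0.32), but 92.2% and 96.1% of that came from a pair of short transcripts with 10 and 6 of its exons. Its transcripts with nearly all exons summed to 0.494 FPKM in the deficient library and 0.0873 FPKM in the floxed library.

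The adaptor complex of ILK, PINCH and parvin, which tethers beta tails to actin, had the highest median relative fold of any role group in the set, 0.97 over its 3 genes. Ilk, which encodes the pseudokinase at its centre, was at 155 FPKM in the deficient library and 42.9 FPKM in the floxed library (relative log2 fold 0.97). Lims1, which encodes the LIM-domain adaptor PINCH, was at 60.3 FPKM in the deficient library and 17.2 FPKM in the floxed library (0.89). Parva, which encodes the actin-binding alpha-parvin, was at 64.8 FPKM in the deficient library and 13.9 FPKM in the floxed library (1.28). Parva had the highest relative fold of the 23 members, at percentile 93.8 of all kept genes, and Ilk and Lims1 stood just inside the 2-fold line. Lims1 and Ilk stood in nearly the same proportion in both libraries, while Parva was higher relative to both in the deficient library. Lims1 was at 0.389 of the level of Ilk in the deficient library, against 0.401 in the floxed library, and Parva at 0.418 and 0.325. Relative to Lims1, Parva was at 1.07 in the deficient library, against 0.810 in the floxed library.

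Parva lies on chromosome 7 from 119571220 to 119735202 (mm9), and both of its transcripts were higher in the deficient library. The one with 13 exons was at 45.8 FPKM in the deficient library (43.5 to 48.2) and 9.23 FPKM in the floxed library (8.13 to 10.3), and the one with 14 exons was at 18.9 and 4.71 FPKM in the same order. Ilk lies on the same chromosome from 112885104 to 112891439 and had a pair of transcripts that differ only in their first exon, with starts 135 bases apart. The upstream start was at 110 FPKM in the deficient library (104 to 116) and 26.3 FPKM in the floxed library (23.1 to 29.4). The downstream start was at 44.6 FPKM in the deficient library (40.0 to 49.1) and 16.6 FPKM in the floxed library (13.9 to 19.4). Both starts were higher in the deficient library with bounds apart, and the upstream start held 71.2% of Ilk FPKM there and 61.3% in the floxed library.

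RefSeq holds promoter windows for both Ilk starts, each from 250 bases before to 50 bases after the start (GRCm38.p6), and 35 windows for 29 of the 38 members in all. The windows of Ilk are shown because the data separate its starts, those of Vcl and Itga11 because they were called members, and those of Actn4 and Actn1 because these paralogs lay on opposite sides of the median gene. Capitals mark matches on either strand to the CArG box consensus, to GGAATG, a core of the sites bound by TEAD factors, and to GGGCGG, a core of GC boxes bound by SP-family factors. The CArG box is the consensus of the serum response factor.
Ilk upstream start, chr7:105736340-105736639, plus strand: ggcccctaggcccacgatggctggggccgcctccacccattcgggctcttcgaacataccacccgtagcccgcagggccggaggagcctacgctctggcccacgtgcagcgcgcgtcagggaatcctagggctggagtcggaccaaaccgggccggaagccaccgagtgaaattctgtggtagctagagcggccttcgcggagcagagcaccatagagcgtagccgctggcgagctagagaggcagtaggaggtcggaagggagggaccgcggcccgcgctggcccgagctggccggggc
Ilk downstream start, chr7:105736475-105736774, plus strand: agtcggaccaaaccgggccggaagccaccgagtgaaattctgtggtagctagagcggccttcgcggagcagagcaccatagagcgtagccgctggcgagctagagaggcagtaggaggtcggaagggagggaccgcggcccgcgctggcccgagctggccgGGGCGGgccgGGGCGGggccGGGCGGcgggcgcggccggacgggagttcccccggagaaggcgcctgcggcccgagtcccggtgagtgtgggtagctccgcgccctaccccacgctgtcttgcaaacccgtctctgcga
Vcl, chr14:20929148-20929447, plus strand: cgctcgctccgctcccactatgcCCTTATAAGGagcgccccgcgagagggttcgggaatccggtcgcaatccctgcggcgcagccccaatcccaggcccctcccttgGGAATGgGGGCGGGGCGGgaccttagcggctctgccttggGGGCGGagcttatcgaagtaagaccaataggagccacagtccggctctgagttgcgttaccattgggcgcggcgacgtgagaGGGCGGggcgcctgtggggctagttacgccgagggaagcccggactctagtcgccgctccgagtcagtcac
Itga11, chr9:62677605-62677904, plus strand: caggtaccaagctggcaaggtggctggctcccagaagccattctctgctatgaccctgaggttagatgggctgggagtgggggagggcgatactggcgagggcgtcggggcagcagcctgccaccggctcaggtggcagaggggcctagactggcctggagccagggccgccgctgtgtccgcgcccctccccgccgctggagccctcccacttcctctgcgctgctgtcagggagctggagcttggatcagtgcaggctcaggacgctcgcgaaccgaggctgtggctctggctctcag
Actn4, chr7:28962283-28962582, minus strand: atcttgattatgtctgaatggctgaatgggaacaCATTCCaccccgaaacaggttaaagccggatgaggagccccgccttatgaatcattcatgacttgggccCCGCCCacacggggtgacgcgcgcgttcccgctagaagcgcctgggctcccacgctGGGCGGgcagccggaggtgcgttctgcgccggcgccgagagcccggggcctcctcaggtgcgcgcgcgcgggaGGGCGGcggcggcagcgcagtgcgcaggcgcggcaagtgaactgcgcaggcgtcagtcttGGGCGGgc
Actn1, chr12:80260314-80260613, minus strand: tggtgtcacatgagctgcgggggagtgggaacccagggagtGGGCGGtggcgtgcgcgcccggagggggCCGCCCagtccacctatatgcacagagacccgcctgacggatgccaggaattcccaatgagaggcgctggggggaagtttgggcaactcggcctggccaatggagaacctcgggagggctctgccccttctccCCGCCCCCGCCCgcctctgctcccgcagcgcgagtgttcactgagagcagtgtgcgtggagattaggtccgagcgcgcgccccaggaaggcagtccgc
The window of Vcl held all of the motifs, that of Actn4 held GGAATG and GGGCGG, and those of Actn1 and the downstream Ilk start held GGGCGG. None of these motifs was found in the windows of Itga11 and the upstream Ilk start. The fourth called member, Parva, has no window among those used here. Over the 35 member windows a CArG box stood in 3 (8.57%), those of Vcl, Fermt2 and Itgb6, against 1.63% of 32851 windows of all genes. GGAATG stood in 14.3% of member windows and 14.7% of all windows, and GGGCGG in 57.1% and 35.7%. In no member window did matches to different motifs overlap, and a match is a description of letters, not of a bound site.

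The focal adhesion kinase gene Ptk2 was at 7.79 FPKM in the deficient library and 3.19 FPKM in the floxed library (0.21), close to the median gene. Bcar1, which encodes a docking protein phosphorylated by focal adhesion kinase and Src, was at 6.38 FPKM in the deficient library and 3.73 FPKM in the floxed library (-0.22). Of Bcar1, however, 78.6% in the deficient library, against 90.0% in the floxed library came from transcripts of 2 exons that matched no gene. Its transcripts of matched structure summed to 1.36 FPKM in the deficient library and 0.373 FPKM in the floxed library. Pxn, which encodes the scaffold paxillin, was at 0.584 and 0.127 FPKM, and Src, a kinase that partners with focal adhesion kinase, at 0.146 and 0.0301 FPKM, in the deficient and the floxed library. Both were under the 1 FPKM limit in both libraries, so no relative fold is given.

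Among the genes that link the plaque to actin, the alpha-actinin paralogs lay on opposite sides of the median gene. Actn1, on chromosome 12 from 81268270 to 81361358 (mm9), was at 35.4 FPKM in the deficient library and 43.9 FPKM in the floxed library, a relative log2 fold of -1.16. It had the lowest relative fold of the 23 members and was the only one whose major transcript was lower in the deficient library with bounds apart, which held for 8.73% of all kept genes. Actn4 was at 24.6 FPKM in the deficient library and 7.05 FPKM in the floxed library (0.81). Both genes encode cross-linkers of actin filaments, and the ratio of Actn1 to Actn4 was 1.44 in the deficient library, against 6.22 in the floxed library. With its most abundant transcript alone, the relative fold of Actn4 was 0.09.

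Vcl, which encodes vinculin, the protein that binds stretched talin and recruits actin, lies on chromosome 14 from 21748645 to 21855907 (mm9). It was at 39.7 FPKM in the deficient library and 9.88 FPKM in the floxed library, a relative log2 fold of 1.04, just past the 2-fold line. Both of its transcripts were higher, the one of 5229 nt at 27.0 FPKM (25.2 to 28.8) in the deficient library and 6.47 FPKM (5.55 to 7.38) in the floxed library, and the one of 8251 nt at 12.7 FPKM (11.6 to 13.8) and 3.41 FPKM (2.85 to 3.98). They differ mainly in their last exon, and the shorter form held 68.0% of Vcl in the deficient library, against 65.4% in the floxed library. Relative to Tln1, which vinculin binds, Vcl was at 5.27 in the deficient library, against 2.08 in the floxed library.

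Flna encodes the actin cross-linker filamin A and had the highest summed FPKM of the members. It was at 193 FPKM in the deficient library and 63.7 FPKM in the floxed library (0.72). Short transcripts with 4 to 15 of its 47 exons held 80.3% of that in the deficient library, against 87.2% in the floxed library. The 4 longer transcripts summed to 37.96 FPKM in the deficient library and 8.13 FPKM in the floxed library. That is below Ilk, at 155 and 42.9 FPKM in the same order, so the rank of Flna rests on its short transcripts. With transcripts of at least 50% of the exons only, the relative fold of Flna was 1.23, past the 2-fold line. Zyx, which encodes the stress-sensing LIM protein zyxin, was at 41.0 FPKM in the deficient library and 11.9 FPKM in the floxed library (0.85). Vasp, whose product lengthens actin filaments and is brought to adhesions by zyxin, was at 3.73 FPKM in the deficient library and 1.10 FPKM in the floxed library (0.32). As FPKM, Zyx stood at 11.0 times Vasp in the deficient library and 10.8 times in the floxed library, so their proportion was nearly the same. Tns1, which encodes tensin, was at 0.490 and 0.535 FPKM in the deficient and the floxed library, with overlapping bounds.

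**Figure D3:**
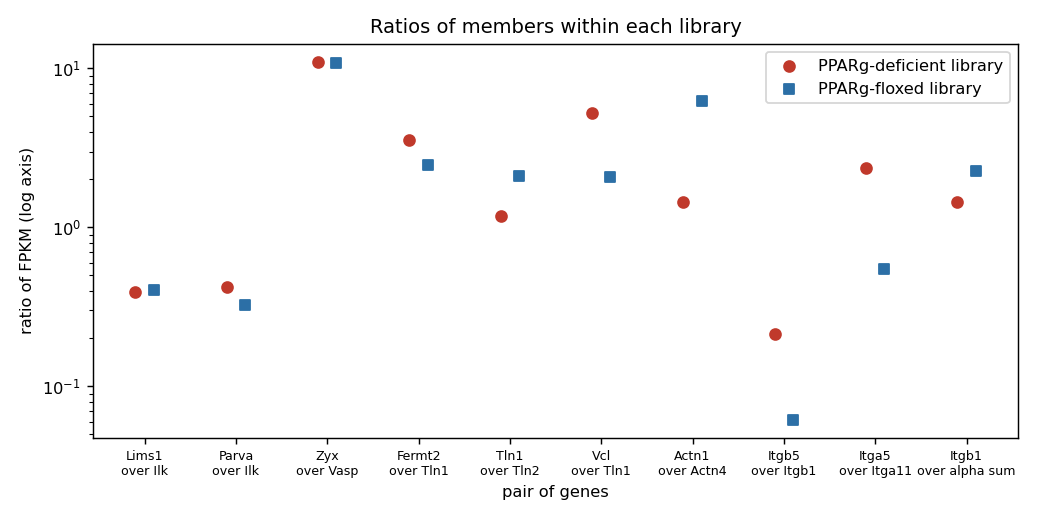
Ratios of FPKM between pairs of members within each library on a log axis, circles for the PPARg-deficient library and squares for the PPARg-floxed library. The markers nearly coincide for Lims1 over Ilk (0.389 and 0.401) and Zyx over Vasp (11.0 and 10.8), and stand far apart for Actn1 over Actn4 (1.44 and 6.22) and Itgb5 over Itgb1 (0.214 and 0.0616).

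Of the 23 members, 16 had a major transcript that was higher in the deficient library with bounds apart (69.6%), beside 63.7% of all kept genes. In 3 of the 20 kept members with several transcripts, Itgav, Ptk2 and Flna, 1 transcript was higher and another lower with bounds apart (15%), beside 21.3% of all such genes. For Itgav the transcript from the downstream start, 11463 bases from the other start, was at 5.25 FPKM (4.64 to 5.87) in the deficient library and 1.68 FPKM (1.27 to 2.08) in the floxed library. The transcript of 7187 nt from the upstream start had an upper bound of 0.0306 FPKM in the deficient library and was at 1.51 FPKM (1.11 to 1.90) in the floxed library. Another from that start, of 7054 nt, was at 1.33 FPKM in the deficient library and 0.880 FPKM in the floxed library. That start was thus present in both libraries. Those 2 transcripts differ by an exon of 46 or 48 nt and by ends 131 bases apart, so only reads at these places can tell them apart. For Ptk2 the transcript of 4415 nt was at 1.95 FPKM (1.13 to 2.77) in the deficient library, with an upper bound of 0.0524 FPKM in the floxed library. The transcript of 4414 nt did the reverse, with an upper bound of 0.0577 FPKM in the deficient library and 1.85 FPKM (1.35 to 2.36) in the floxed library. Those Ptk2 transcripts differ by 1 nt in the length of a single exon, so reads that span its edge alone can tell them apart.

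**Figure D4:**
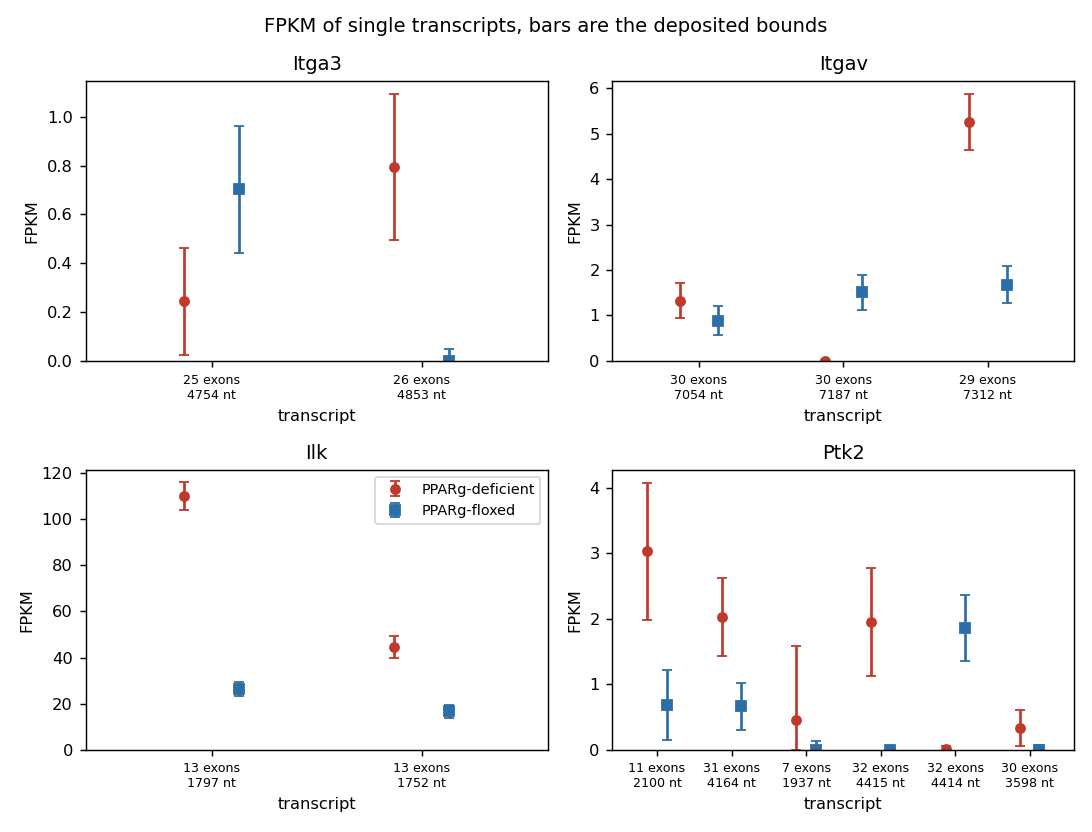
FPKM of single transcripts of Itga3, Itgav, Ilk and Ptk2 that reached 0.1 FPKM in a library, circles for the PPARg-deficient library, squares for the PPARg-floxed library, bars the deposited bounds. In Ilk both transcripts are higher in the deficient library, while in Itgav and Ptk2 a transcript near 0 in the deficient library is present in the floxed library.

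The other 15 members stayed under 1 FPKM in both libraries, with a highest value of 0.584 FPKM, that of Pxn. Just inside the limit stood Itga3, Itga6 and Itgb2 with highest values of 1.04, 1.05 and 1.08 FPKM. Just outside it, under Pxn, stood Itgb3 at 0.554, Tns1 at 0.535 and Itgb8 at 0.406 FPKM. Of the 15, 9 were nominally higher in the deficient library, against 5 in the floxed library. A transcript with a lower bound above 0 was present for 7 of them in the deficient library, against 5 in the floxed library. No share over all genes under 1 FPKM stands beside these counts, so they are not read as a result about the members. Read coverage was also larger in the deficient library, at 1728 against 1383 megabases. Itga4, the subunit that binds the adhesion molecule VCAM, was listed at 0 in the deficient library and at 0.011 FPKM in the floxed library, and Itga9 was at 0.322 and 0.0812 FPKM.

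Markers of other cells that use these integrins were near 0. Of 9 matched megakaryocyte and platelet genes 8 were listed at 0 in both libraries, among them Pf4 and Gp1ba, and the ninth, Ppbp, was at 0.122 FPKM in the deficient library and 0.126 FPKM in the floxed library. The 15 matched leukocyte genes summed to 2.80 FPKM in the deficient library and 4.02 FPKM in the floxed library, with Ptprc, Spi1 and Tyrobp at 0 in both. The highest of them were Cd68 at 2.10 and 1.56 FPKM, Cd53 at 0.041 and 1.57 FPKM and Fcer1g at 0.236 and 0.728 FPKM, in the deficient and the floxed library. The 9 endothelial genes summed to 0.277 and 0.101 FPKM and the 7 epithelial genes to 0.251 and 0.196 FPKM in the same order, and Pecam1 and Epcam were at 0. Contractile genes of smooth muscle and myofibroblasts were high. They summed to 5429 FPKM in the deficient library and 3194 FPKM in the floxed library, with Acta2 at 4656 and 2154 FPKM, Tagln at 576 and 292 FPKM and Actg2 at 181 and 738 FPKM. Myh11, Des and Myocd, which define mature muscle, stayed at or below 0.139 FPKM. The part of a contractile cell state in the plaque values was not tested.

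The wider adhesion machinery was described by 45 further genes, of which 35 were kept, 6 of them through the deficient library alone. Of these 5 were at least 2-fold higher relative to the median gene and 2 lower, with a median of 0.17. That is 14.3% and 5.71%, beside 10.2% and 11.7% of all kept genes. Lims2, a paralog of Lims1 that encodes a second PINCH protein, was at 19.5 FPKM in the deficient library and 1.14 FPKM in the floxed library (2.40). Itgb1bp1, which encodes a protein that binds the tail of the Itgb1 product and counters its activation, was at 32.8 FPKM in the deficient library and 3.81 FPKM in the floxed library (1.95). Pdlim1, which encodes an adaptor of alpha-actinin, was at 187 FPKM in the deficient library and 29.8 FPKM in the floxed library (1.75). Each of these 3 had a relative fold above that of any of the 23 members.

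Genes of matrix ligands lay mostly below the median gene. Of 29 ligand genes 20 were kept, with a median of -0.89. Relative to the median gene 9 of them were at least 2-fold lower (45%) and 1 higher (5%), beside 11.7% and 10.2% of all kept genes. As deposited 7 of the 20 were lower and 2 higher, beside 4.55% and 42.1% of all kept genes. Of the 20, 18 reached 1 FPKM in both libraries. Ibsp and Npnt (0.121 and 1.37 FPKM in the deficient and the floxed library) reached it in the floxed library alone. They had to be lower as deposited to be kept, and both are among the genes counted as lower. Spp1, which encodes osteopontin, a ligand of Itgav receptors, was at 234 FPKM in the deficient library and 48577 FPKM in the floxed library (-8.55). Edil3, which encodes a secreted RGD protein, was at 2.12 FPKM in the deficient library and 12.96 FPKM in the floxed library (-3.02), and Tnc, which encodes tenascin C, at 13.8 and 60.5 FPKM (-2.92). Ibsp, which encodes the RGD protein bone sialoprotein, was listed at 0 in the deficient library and at 7.56 FPKM in the floxed library. The list was drawn up with some of these values already known, and its difference from the receptors was not tested.

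**Figure D5:**
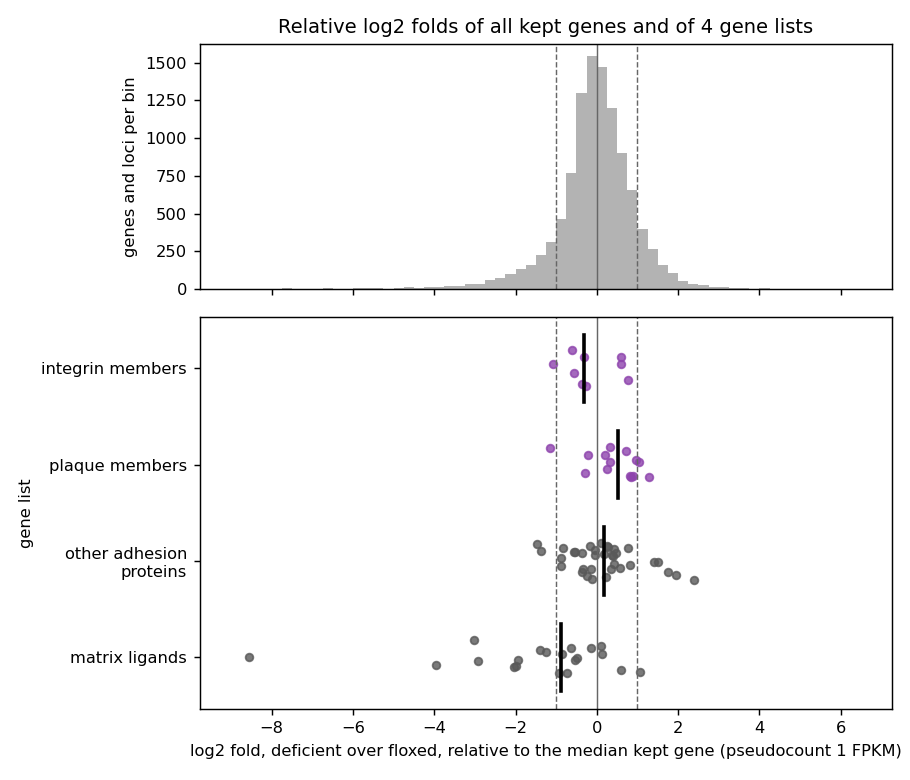
Upper panel, number of the 10634 kept genes and loci per bin of relative log2 fold, deficient over floxed. Lower panel, the same quantity for each kept gene of the integrin members, plaque members and 2 further lists, with a black bar at the median and dashed lines at 2-fold. The medians are -0.32 for integrins, 0.52 for plaque genes, 0.17 for other adhesion proteins and -0.89 for matrix ligands.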

How the data were processed

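RNA of 2 libraries, 1 per genotype, was analysed. The deposited files hold FPKM per transcript, with lower and upper bounds and read coverage, stored as text attributes in the format of Cufflinks. The tools named, per the submitters' processing notes, are Cuffdiff 2.0.2, Cufflinks 2.0.2 and TopHat2 2.0.5, and the build is mm9. Which annotation, filters and strand setting the authors used is not stated, so reads from overlapping genes on opposite strands may not be separated. The files hold no gene symbols. The ordered intron and internal exon lengths of each transcript were matched to GENCODE mouse M21 on the same chromosome and strand, which named 18997 of 25707 loci, and 0 of 36943 whole chains matched on a wrong chromosome. A gene's FPKM is the sum over its transcripts, leaving out those matched to another gene only. Genes with a transcript of at least 300 nt and at least 1 FPKM in 1 library were kept. The text names each member, from each further list the genes with the largest folds (up to 4, at 5 FPKM or more), and the highest and absent markers. Coordinates of genes are those of the files, and promoter windows are RefSeq's. The members and lists were chosen with earlier results of these data known. Some genes and 1 further list are not reported here. The calling step was tested on simulated data, with base levels of 5 FPKM or more and set changes well past 2-fold. It therefore does not show how calls near 2-fold or of low genes behave. Python 3.11.15 with numpy 2.4.6 and pandas 2.3.3 was used.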

Additional observations from a re-analysis of the deposited data

How the results depend on the processing

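With FPKM as deposited, and likewise with TPM over transcripts of at least 300 nt, 14 members were at least 2-fold higher (60.9%) and 0 lower. Of all kept genes 42.1% and 42.6% were higher in these settings, and 4.55% and 5.42% were lower. The median fold of the members was 1.17 and 1.19 on the log2 scale. Upper-quartile scaling gave 1 higher member (4.35%) and 2 lower, beside 10.7% and 11.9% of all kept genes. A limit of 5 FPKM gave 1 higher of 17 (5.88%) and 1 lower, beside 11.7% and 13.9%. A pseudocount of 5 FPKM gave 6 higher (26.1%) and 0 lower, beside 8.48% and 3.99%. No filter on low values gave 8 higher of 37 members (21.6%, beside 13.5% of all genes) and 0 lower, and the most abundant transcript gave 4 higher of 22 (18.2%, beside 12.8%). A fold of 1.5 gave 10 higher (43.5%, beside 21.9%) and 3 lower (13.04%, beside 20.4%), and asking for bounds apart at 2-fold left 1 lower. A pseudocount of 0.1 FPKM left both counts at 2, but the higher members were then Parva and Itga1 (1.10), with Vcl at 0.86. The median over named loci changed neither count. Transcripts of matched structure only and weighting by length, chosen after seeing the data, changed neither count. Transcripts with at least 50% of the exons, likewise chosen after seeing the data, gave 3 higher of 22 (13.6%, beside 10.2% of all genes). Parva was past 2-fold, which is 1 on the log2 scale, in every one of these settings, with log2 folds of 1.07 to 2.14. Over the single members, 214 alternative values moved by less than the error their bounds give, 54 moved by more, and 0 called members changed sign. Of the other 19, 7 changed sign relative to the median gene in at least 1 of the centred settings, namely Itga6, Itgav, Itgb2, Tln1, Tln2, Ptk2 and Bcar1, all of them within 0.36 of it on the log2 scale both before and after. Among them Itgav was at 0.35 with its most abundant transcript and Ptk2 at -0.27 with transcripts of at least 50% of the exons. No paired analysis was possible because there is 1 library per group, and leaving out a replicate was likewise not possible. The depth behind a value is unknown, which limits the 15 members under 1 FPKM most.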

Other observations

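Genes of the wider adhesion list that were past 2-fold but outside the rule for naming were looked up after their values were seen. Sharpin, which encodes a protein that holds integrins inactive, was at 4.77 FPKM in the deficient library and 0.203 FPKM in the floxed library, a relative log2 fold of 1.40. Enah, which encodes an actin regulator of the same family as Vasp, was at 4.58 FPKM in the deficient library and 7.48 FPKM in the floxed library (-1.46). Kank1, which encodes a talin-binding protein at the rim of adhesions, was at 1.49 FPKM in the deficient library and 2.58 FPKM in the floxed library (-1.38). Among matrix ligands Fbn1, which encodes the RGD protein fibrillin, was the only one at least 2-fold higher, at 29.8 FPKM in the deficient library and 7.17 FPKM in the floxed library (1.05).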
